A study of Mus musculus with 4 samples.

Results

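The genes described here are 10 genes of the endoplasmic reticulum (ER) stress response, Hspa5, Hsp90b1, Calr, Dnajb9, Pdia4, Pdia6, Herpud1, Xbp1, Ddit3 and Atf4, among 16793 genes tested in the mouse dorsal hippocampus. The rule names them by the function of their products and uses no measured value, but they were chosen with earlier results of these data known. Their 17 array probes, found by matching each probe's RefSeq accession to a gene symbol, were well above background on all 4 arrays, so no member was lost to a filter. The arrays carried total RNA of female mice, taken after behavioural testing, from a control group and from a group on a 20-fold iodine intake, in a study of excess iodine and brain development. Each group had 2 arrays, replicates 2 and 3 in the labels. Strain, age, the length of the iodine intake and whether each replicate was 1 animal are not given in the sources used here, so a p-value here sets a difference against the spread of these samples alone, and that spread may be technical. Iodine intake is the only difference between the groups that the labels name.

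The ER folds secreted and membrane proteins. When unfolded proteins build up in it, the chaperone BiP, the product of Hspa5, leaves the membrane sensors IRE1, PERK and ATF6, and these start the unfolded protein response. ATF6 is cut to a transcription factor, IRE1 splices the messenger of Xbp1 so that it encodes an active factor, and PERK phosphorylates eIF2, which slows translation in general but favours that of Atf4. The induced genes encode chaperones, disulphide isomerases and degradation factors, and under lasting stress the pro-apoptotic factor CHOP, the product of Ddit3. In neurons the same machinery serves the high output of receptors and secreted peptides.

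The promoters of 5 members are shown because they hold the DNA element through which ATF6 and XBP1 are known to act, which links members of different function. They are RefSeq sequences of build GRCm38.p6, from 250 bases before to 50 bases after the annotated start, written 5′ to 3′ on the strand of the gene. Capitals mark the ER stress element (CCAAT, a gap of 9 bases, then CCACG), its second form in Herpud1 (ATTGG, a gap of 1 base, then CCACG) and, also in Herpud1, the composite element of ATF4 (TGATGNAA), each on either strand.

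Hspa5 (chr2:34771840-34772139, plus strand): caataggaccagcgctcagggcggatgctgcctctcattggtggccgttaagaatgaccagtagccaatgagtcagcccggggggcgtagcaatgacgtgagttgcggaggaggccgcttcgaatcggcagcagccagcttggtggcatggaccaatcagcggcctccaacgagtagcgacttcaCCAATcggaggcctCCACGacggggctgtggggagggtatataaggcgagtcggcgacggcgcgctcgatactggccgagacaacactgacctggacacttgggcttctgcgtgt
Hsp90b1 (chr10:86705395-86705694, minus strand): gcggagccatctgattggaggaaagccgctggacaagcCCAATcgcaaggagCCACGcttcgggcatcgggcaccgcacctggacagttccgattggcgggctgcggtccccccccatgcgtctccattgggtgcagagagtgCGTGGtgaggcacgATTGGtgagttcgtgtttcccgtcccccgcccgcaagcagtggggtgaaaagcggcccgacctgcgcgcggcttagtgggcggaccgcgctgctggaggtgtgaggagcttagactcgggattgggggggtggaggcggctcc
Calr (chr8:84846882-84847181, minus strand): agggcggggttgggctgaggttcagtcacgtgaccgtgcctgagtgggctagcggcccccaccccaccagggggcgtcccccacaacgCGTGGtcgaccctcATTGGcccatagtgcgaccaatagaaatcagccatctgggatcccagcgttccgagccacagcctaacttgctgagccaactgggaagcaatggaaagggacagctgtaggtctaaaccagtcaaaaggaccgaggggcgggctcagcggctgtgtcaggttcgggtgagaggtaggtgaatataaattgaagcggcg
Pdia6 (chr12:17266339-17266638, plus strand): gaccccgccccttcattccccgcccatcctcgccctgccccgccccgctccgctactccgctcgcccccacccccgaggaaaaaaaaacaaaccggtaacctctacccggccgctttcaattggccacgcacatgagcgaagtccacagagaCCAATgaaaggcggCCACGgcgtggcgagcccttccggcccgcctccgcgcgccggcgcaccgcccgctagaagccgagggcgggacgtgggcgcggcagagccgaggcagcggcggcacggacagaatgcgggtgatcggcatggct
Herpud1 (chr8:94386179-94386478, plus strand): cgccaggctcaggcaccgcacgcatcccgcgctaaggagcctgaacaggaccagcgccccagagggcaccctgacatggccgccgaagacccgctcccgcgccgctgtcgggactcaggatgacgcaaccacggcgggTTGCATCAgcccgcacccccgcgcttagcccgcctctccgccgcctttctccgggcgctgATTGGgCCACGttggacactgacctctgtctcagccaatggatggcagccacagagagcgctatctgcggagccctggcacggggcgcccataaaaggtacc

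The exact ER stress element was in 4 of the 10 promoters, those of Hspa5, Hsp90b1, Calr and Pdia6, against 0.119% of all 32851 promoters of that length. Hsp90b1 held 2 copies, and the copy in Hspa5 lay 65 bases before the start. The second form was in Herpud1 alone among the members and in 0.0365% of all promoters. The composite element of ATF4 was in Herpud1 and in 3.97% of promoters, and the unfolded protein response element TGACGTGG was in 0 members and 0.676% of promoters. Each conserved end of the ER stress element is common on its own. CCAAT was in 9 members and 37.4% of promoters, and CCACG, which also lies within the reverse of TGACGTGG, in 8 members and 32.8%. A match describes these letters in this window and is neither a measured binding site nor a cause. The genes were picked as ER stress genes, so their share of such elements is a description.

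**Figure D1:**
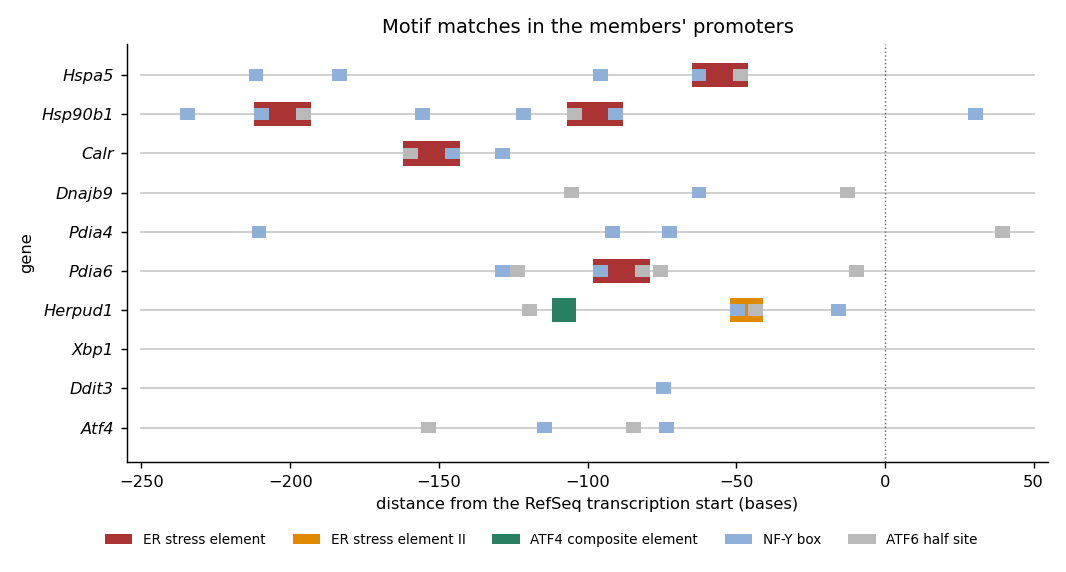
Motif matches in the promoter of each of the 10 genes, plotted by distance in bases from the RefSeq transcription start (dotted line, 250 bases before to 50 after). Wide bars are full elements and narrow bars its single ends, CCAAT (the site of NF-Y) and CCACG (bound by ATF6); 4 promoters hold the ER stress element and Herpud1 holds its second form.

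The arrays were close in quality, but some values ran with group. Of 56605 probes, 37893 and 37921 passed the scanner's background flag on control replicates 2 and 3, against 37533 and 37751 on the iodine arrays. The 75th percentile lay at processed signals of 158.8 and 154.2 in controls, against 149.7 and 144.3 in iodine. The 4 arrays shared 1 slide and 1 scan, with controls in columns 1 and 2 and iodine samples in columns 3 and 4, so slide position and group cannot be told apart. Each member probe was spotted once. Probes spotted several times varied within an array by a median coefficient of variation of 2.27 to 3.24%, highest on iodine replicate 3. That array also had the most spots flagged as outliers, 70 against 47 to 55. The part of these differences in the members' values was not tested. All 7 hippocampal markers, such as Prox1 of the dentate gyrus and Fibcd1 of field CA1, passed that flag and were tested.

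The messengers of the ER stress genes were mostly slightly lower in 20-fold iodine than in control, and none passed the test. In 9 of the 10 genes the mean was lower in iodine, where 54.3% of all genes were lower, and Calr was higher. With normexp background correction, which turned Pdia6, 8 members were lower, where 48.7% of all genes were. The median log2 difference, iodine minus control, was -0.092 over the members and -0.014 over all genes tested. No member passed limma's adjusted p of 0.05 (adjusted p from 0.668 for Dnajb9 to 0.924 for Pdia6), and 0% of all genes did. At an unadjusted p under 0.05 stood 1 member, Dnajb9, where 3.49% of all genes were lower at that limit. That count was 0 when all probes of a gene were averaged, where 3.14% of all genes were lower at that limit. Without control replicate 2 the number of members lower was 6 of 10 and the median -0.054, where 54.0% of all genes were lower.

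The 4 arrays allow few statements on a single gene. An exact permutation test on 2 arrays against 2 cannot go below a two-sided p of 0.333. The fit across all genes gave the members standard errors (SE) with a median of 0.088, against 0.094 over all genes. The widest bounds of the members' 95% confidence intervals were -0.64 and 0.35, so differences beyond 1.56-fold lower or 1.27-fold higher lay outside every member's interval. In 4 members, Hsp90b1, Calr, Dnajb9 and Herpud1, the difference was larger than the gap between the 2 arrays of either group, which held for 27.2% of all genes. The groups' arrays did not overlap in 6 members that were lower in iodine and in 1 that was higher, where the shares over all genes were 21.9% and 17.9%.

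Values below are log2 signals minus the array's 75th percentile, so that 0 is a signal equal to that percentile. They are given for the brightest probe of each gene, in the order control replicates 2 and 3, then iodine replicates 2 and 3. Levels of different probes cannot be compared on arrays. Differences carry the SE of the fit (n = 2 arrays per group).

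Hspa5 encodes BiP, the main Hsp70 chaperone of the ER lumen and the usual readout of the unfolded protein response. Its signals were 4.43 and 4.09 in controls, against 4.12 and 4.07 in iodine (probe A_55_P2076772). Control replicate 2 was high and control replicate 3 lay between the iodine arrays, so the groups overlapped. The log2 difference was -0.17 ± 0.14 (95% confidence interval -0.55 to 0.21, limma adjusted p = 0.802). The gap between the controls, 0.34, was larger than this difference. Without control replicate 2 the difference was 0.0027 and without control replicate 3 it was -0.34, so 1 array decides the value. With normexp background correction the difference was -0.037.

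Hsp90b1 encodes GRP94, the Hsp90 chaperone of the ER, which folds integrins and Toll-like receptors. It read 4.91 and 4.90 in controls, against 4.82 and 4.79 in iodine (probe A_55_P2830399). Here the 2 controls nearly coincided and both iodine arrays were lower. The log2 difference was -0.099 ± 0.070, from -0.29 to 0.092 at 95% confidence (limma adjusted p = 0.777), or 1.07-fold. Leaving out any 1 array kept it between -0.12 and -0.082, and it was -0.047 with normexp background correction.

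Calr encodes calreticulin, a calcium-binding lectin that holds glycoproteins during folding. Signals were 3.64 and 3.70 in controls, against 3.82 and 3.82 in iodine (probe A_51_P416419). Both iodine arrays were above both controls, and the sign was opposite to that of the 9 other members. Its promoter, like that of Hspa5, holds the ER stress element. Its log2 difference was 0.15 ± 0.072, with an interval of -0.049 to 0.35 (limma adjusted p = 0.727). Over all alternatives it ranged from 0.094 to 0.18.

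Dnajb9 encodes ERdj4, a J-domain partner of BiP that is induced through XBP1 and keeps IRE1 inactive. The brightest probe (A_55_P2811370) read 1.44 and 1.27 in controls, against 1.11 and 0.92 in iodine. All 4 arrays were apart from each other and both iodine arrays were below both controls. Its log2 difference of -0.34 ± 0.11 was the largest among the members (interval -0.64 to -0.042, limma adjusted p = 0.668), a level 1.27-fold higher in control. Of all genes tested, 3.98% had a lower value. Dropping control replicate 2 gave -0.26, and dropping 20-fold iodine replicate 3 gave -0.25.

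Pdia4 encodes ERp72 and Pdia6 encodes P5, which are protein disulphide isomerases; P5 also acts on the sensor IRE1. Pdia4 read -0.54 and -0.72 in controls, against -0.65 and -0.71 in iodine (probe A_51_P328300). Pdia6 read 4.34 and 4.16 in controls, against 4.23 and 4.18 in iodine (probe A_55_P2053491). In both genes control replicate 2 was the highest array and control replicate 3 the lowest, with both iodine arrays between them. The log2 differences were -0.048 ± 0.095 for Pdia4 and -0.048 ± 0.096 for Pdia6 (limma adjusted p = 0.924 for both). Without control replicate 2 the differences were 0.041 and 0.046, and that of Pdia6 was 0.010 with normexp background correction.

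Herpud1 encodes HERP, a membrane protein of the complex that sends misfolded proteins from the ER to the proteasome. Its brightest probe (A_51_P434101) read 2.38 and 2.32 in controls, against 2.21 and 2.21 in iodine. The iodine arrays nearly coincided and lay below both controls. Its log2 difference was -0.14 ± 0.072 (interval -0.34 to 0.055, limma adjusted p = 0.732). With normexp background correction, averaging of probes or 1 array left out the value stayed negative, between -0.17 and -0.026.

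Xbp1 encodes the transcription factor downstream of IRE1. Its brightest probe (A_55_P1994032) gave 3.90 and 3.70 in controls, against 3.64 and 3.59 in iodine. Control replicate 2 stood above the other 3 arrays, and control replicate 3 was only just above the iodine arrays. The log2 difference was -0.19 ± 0.098 (interval -0.46 to 0.079, limma adjusted p = 0.736). It was -0.093 without control replicate 2 and -0.29 without control replicate 3. The files do not place the probes within the transcript, so spliced and unspliced Xbp1 messengers were not told apart.

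Atf4 encodes the factor whose translation rises when eIF2 is phosphorylated, a step that messenger levels do not show. Its brightest probe (A_55_P1979728) read 5.24 and 5.30 in controls, against 5.24 and 5.13 in iodine. Control replicate 2 and iodine replicate 2 differed by less than the gap between replicates of either group. The log2 difference was -0.085 ± 0.081 (interval -0.31 to 0.14, limma adjusted p = 0.824). It was -0.031 without 20-fold iodine replicate 3 and -0.14 without 20-fold iodine replicate 2.

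Ddit3 encodes CHOP, the pro-apoptotic factor of prolonged ER stress, which ATF4 induces. The single probe (A_52_P533146) read -0.15 and -0.27 in controls, against -0.27 and -0.29 in iodine. Control replicate 3 was almost at the level of the iodine arrays. Its log2 difference was -0.074 ± 0.081 (interval -0.30 to 0.15, limma adjusted p = 0.846) and -0.015 without control replicate 2.

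**Figure D2:**
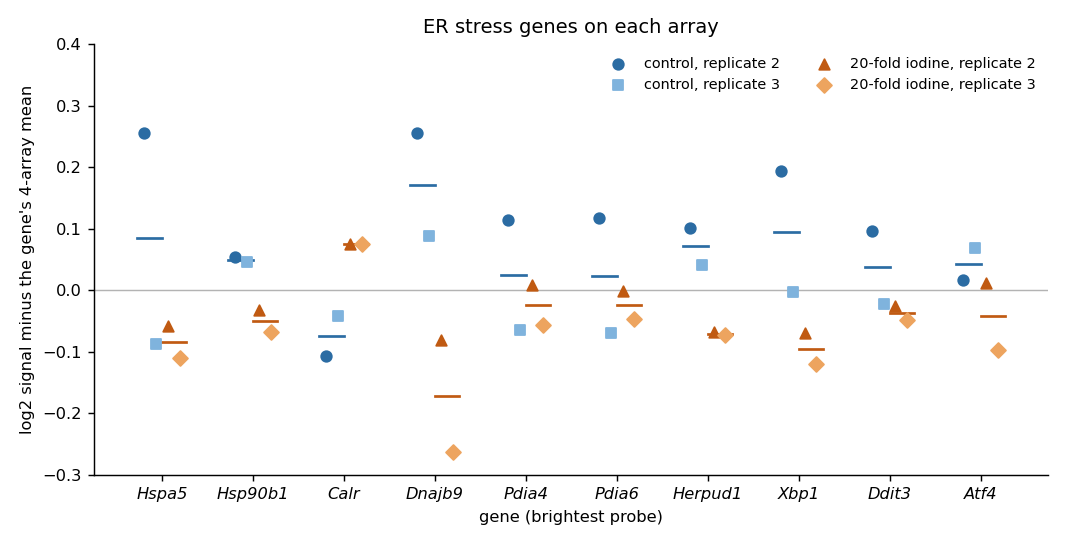
Log2 signal of the brightest probe of each gene on each of the 4 arrays, minus the gene's mean over the 4 arrays; short lines are the means of the 2 control and the 2 iodine arrays. Control replicate 2 is the highest array in 8 of 10 genes, and Calr is the only gene with both iodine arrays on top.

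Control replicate 2 was the highest of the 4 arrays in 8 of 10 members, where it was the highest in 26.4% of all genes. Iodine replicate 3 was the lowest in 7 members, and in 33.6% of all genes. Measured from each gene's mean over the 4 arrays, the members had median deviations of 0.11 and -0.012 on control replicates 2 and 3, and -0.028 and -0.070 on iodine replicates 2 and 3. Over all genes the same medians lay between -0.019 and 0.0074. Control replicate 3 was thus closer to the iodine arrays than to the other control. In 7 of 10 members the 2 controls differed more from each other than the 2 iodine arrays did, with a median gap of 0.14 against 0.048.

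**Figure D3:**
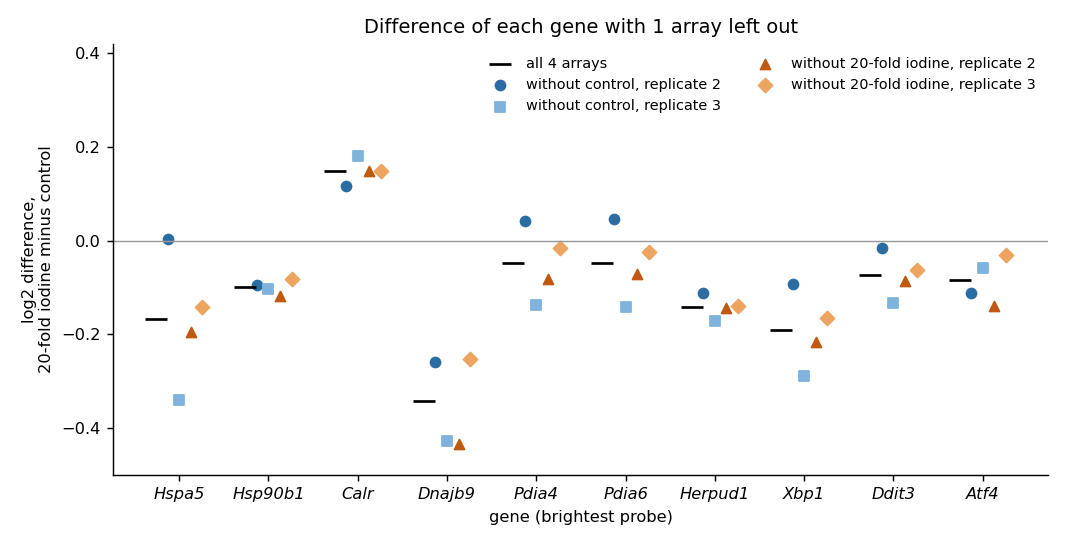
Log2 difference, 20-fold iodine minus control, for each gene with all 4 arrays (black line) and with 1 array left out (symbols). Without control replicate 2, Hspa5, Pdia4 and Pdia6 lie at or above 0, at 0.0027, 0.041 and 0.046, while the other 6 lower genes stay below 0 and Calr above 0 with any array left out.

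Probes bore out the direction of a gene only in part. Of the 17 probes 14 were lower in iodine, where 47.6% of all 38228 probes tested were. None passed limma's adjusted p of 0.05 over all probes (smallest 0.540), as for 0% of all probes. The groups did not overlap in 7 member probes that were lower in iodine, where 18.4% of all probes did so. Of the 5 members with more than 1 probe, 3 had probes of 1 sign and 2 did not, while signs differed in 47.7% of the 6092 genes with several probes.

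The 3 probes of Xbp1 gave like values, with log2 differences of -0.19 ± 0.10, -0.19 ± 0.15 and -0.22 ± 0.14 in the fit over all probes. The second Xbp1 probe (A_52_P185079) read 0.78 and 0.43 in controls, against 0.34 and 0.50 in iodine. The dimmest (A_55_P2739653) read 0.29 and 0.12 in controls, against -0.16 and 0.13 in iodine. On these 2 dimmer probes iodine replicate 3 was not below control replicate 3, so the groups overlapped.

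The 3 probes of Hspa5 gave -0.17 ± 0.14, -0.12 ± 0.11 and -0.048 ± 0.15. The second (A_55_P2617139) read 2.09 and 1.87 in controls, against 1.86 and 1.87 in iodine. The dimmest (A_55_P2617149) read 1.73 and 1.40 in controls, against 1.45 and 1.58 in iodine. Control replicate 2 was the highest array on all 3, while control replicate 3 lay just above the iodine arrays on the second and below both on the dimmest. The 2 probes of Atf4 gave -0.085 ± 0.087 and -0.078 ± 0.11, and on the dimmer one (A_52_P139727), which read 1.05 and 1.24 in controls, against 0.98 and 1.15 in iodine, the groups overlapped.

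Dnajb9 and Herpud1 had probes of opposite sign. The other Dnajb9 probe (A_66_P133450) read -3.63 and -3.56 in controls, against -3.41 and -3.69 in iodine, a log2 difference of 0.041 ± 0.13. Its processed signals in controls were 12.8 and 13.1, against 431 and 373 on the bright probe, so it was a dim probe, and its groups overlapped. The other Herpud1 probe (A_55_P2810587) read -0.37 and -0.50 in controls, against -0.44 and -0.26 in iodine, a difference of 0.089 ± 0.11. With the mean of both probes the differences were -0.15 for Dnajb9 and -0.026 for Herpud1. The difference between probes of a gene was not tested.

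**Figure D4:**
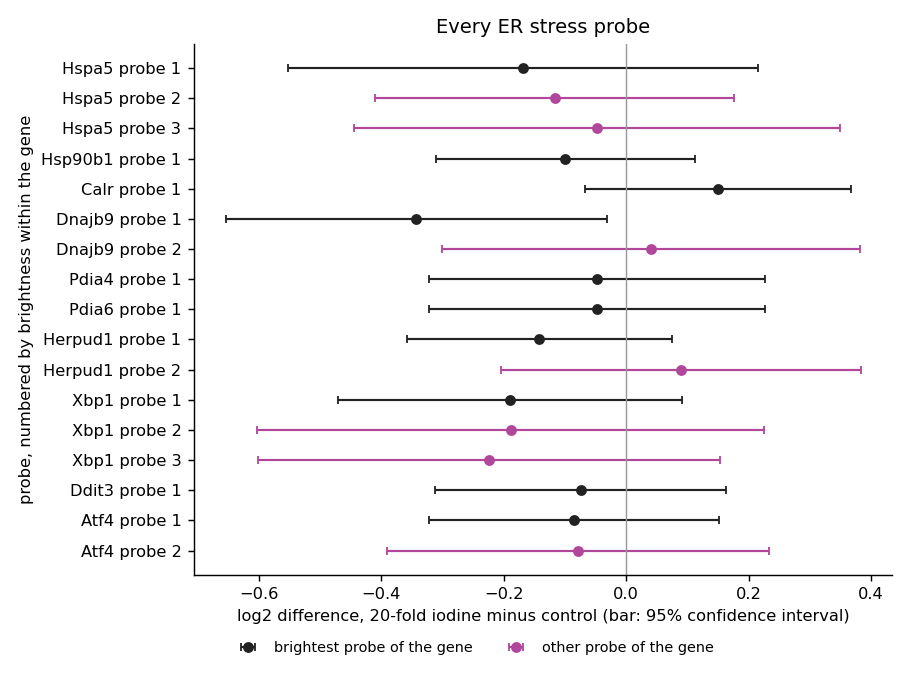
Log2 difference, 20-fold iodine minus control, of each of the 17 probes of the 10 genes, with 95% confidence intervals from the limma fit over all probes; black marks the brightest probe of a gene and purple its other probes. The interval leaves out 0 for 1 probe, the brightest of Dnajb9, while its other probe, the second probe of Herpud1 and the probe of Calr lie above 0.

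Other genes of the pathway, 101 genes in 8 lists, showed no change that passed the test either (0 at limma's adjusted p of 0.05). Of these, 65 (64.4%) were lower and 36 higher in iodine, where 54.3% of all genes were lower, with a median log2 difference of -0.025. At an unadjusted p under 0.05, 3 were lower (Dnajc3, Edem3 and Herpud2) and 1, Tmx3, was higher, where 3.49% and 3.89% of all genes were. The lists share no gene with the 10 members.

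The 3 main sensors had differences of both signs. Ern1, which encodes IRE1, differed by 0.24 ± 0.12 (limma adjusted p = 0.727), with signals of -2.23 and -2.11 in controls, against -2.05 and -1.81 in iodine. Eif2ak3, which encodes PERK, differed by -0.12 ± 0.072 (limma adjusted p = 0.760), with -0.16 and -0.22 in controls, against -0.29 and -0.31 in iodine. Atf6 differed by 0.045 ± 0.077 (limma adjusted p = 0.910). The groups did not overlap for Ern1 and Eif2ak3 and overlapped for Atf6. Of the 10 sensors and transducers 7 were higher and 3 lower, with a median of 0.046.

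In the list of eIF2 phosphorylation control 9 of 12 genes were lower (median -0.021). Without 20-fold iodine replicate 3 this was 5 of 12 (median 0.013), where 50.4% of all genes were lower. The list holds genes that act for and against that phosphorylation, so its count gives no direction for it. It also holds Eif2s1, for eIF2 itself, and Eif2b1 to Eif2b5, for its exchange factor eIF2B. The lowest was Dnajc3, which encodes p58IPK, an ER co-chaperone and inhibitor of PERK, at -0.26 ± 0.075 (limma adjusted p = 0.668), with -0.21 and -0.30 in controls, against -0.51 and -0.50 in iodine. The highest was Ppp1r15a, which encodes GADD34, the stress-induced partner of the eIF2 phosphatase, at 0.091 ± 0.077. The list of ATF4 and CHOP targets held 15 of 18 genes lower in iodine (median -0.088). Without control replicate 3 this was 11 of 18 (median -0.013), where 53.6% of all genes were lower (median -0.014). The lowest of these targets was the stress factor Atf3 at -0.53 ± 0.41, which rests on control replicate 3. That array read -3.05, and the other 3 lay between -4.20 and -4.12. The Atf3 probe was thus dim, on those 3 arrays below the dim Dnajb9 probe (-3.69 to -3.41). The highest target was Shmt2, a mitochondrial enzyme of serine metabolism, at 0.13 ± 0.081.

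Among the other ER chaperones 7 of 12 were lower (median -0.048), and 6 of 12 when all probes of a gene were averaged (0.0023), where 49.4% of all genes were. These chaperones ran from Creld2 at -0.16 ± 0.11 to Creld1 at 0.19 ± 0.071. The enzymes of disulphide bond formation were lower in 9 of 12 (median -0.022). Without control replicate 2, where 54.0% of all genes were lower, this was 5 of 12 of these enzymes (0.0084). They held both the isomerase gene Pdia5 at -0.39 ± 0.17, which read 0.22 and -0.20 in controls, against -0.29 and -0.46 in iodine, and the membrane thioredoxin Tmx3 at 0.39 ± 0.074, with -1.30 and -1.38 in controls, against -0.97 and -0.94 in iodine (limma adjusted p = 0.710 and 0.668).

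ER-associated degradation genes, the partners of Herpud1, were lower in 10 of 17 (median -0.012), but in 6 of 17 when all probes of a gene were averaged (0.016), in 8 of 17 with normexp (0.00079) and in 13 of 17 when scaled by the median detected probe (-0.037). The lowest was Edem3, which trims mannose from misfolded glycoproteins, at -0.27 ± 0.070 (limma adjusted p = 0.668), with another probe at 0.19, and the highest was the channel component Derl1 at 0.092 ± 0.12. Genes of protein entry into the ER were lower in 10 of 13 (median -0.041). This was 7 of 13 (-0.014) without 20-fold iodine replicate 3, where 50.4% of all genes were lower. It was 12 of 13 without 20-fold iodine replicate 2 (-0.073) and when scaled by the median detected probe (-0.066). The entry genes ran from the signal peptidase subunit Spcs2 at -0.17 ± 0.081 to Srpr at 0.10 ± 0.077. Srpr encodes a subunit of the receptor for the signal recognition particle. ER calcium genes were lower in 2 of 7 (median 0.0081), but in 6 of 7 when arrays were scaled by the median detected probe (-0.017), in 5 of 7 with normexp (-0.019) and in 5 of 7 without 20-fold iodine replicate 2 (-0.059). They ran from Wfs1, which is mutated in Wolfram syndrome, at -0.11 ± 0.097 to the ryanodine receptor gene Ryr2 at 0.11 ± 0.14. Another Ryr2 probe lay at -0.060. Over all genes the share also moved. It was 61.8% lower when scaled by the median detected probe (median -0.039), against 54.3% in the main fit. The share was 48.7% with normexp, 49.4% with averaged probes and 55.7% without 20-fold iodine replicate 2.

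**Figure D5:**
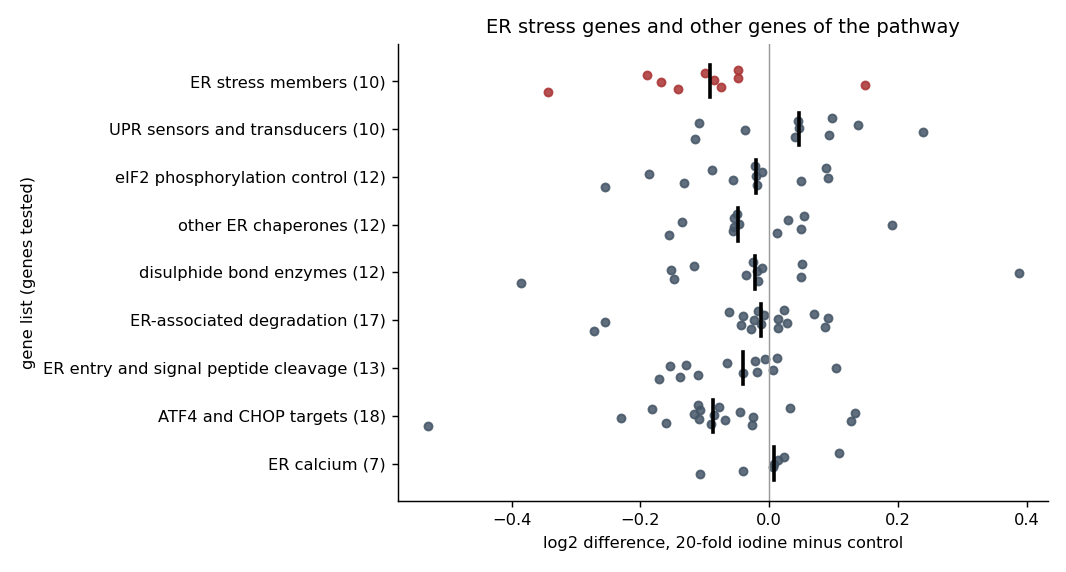
Log2 difference, 20-fold iodine minus control, of each gene in the 10 ER stress genes (red) and in the 8 other lists of the pathway, with the number tested in brackets and the list's median as a black line. Medians lie between -0.092 for the ER stress genes and 0.046 for the sensors and transducers. The widest values are those of Atf3, whose probe was dim, Pdia5 and Tmx3.

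Cell makeup cannot be told apart from RNA per cell in such bulk tissue, and markers of other tissues did differ between arrays. Pituitary genes were higher in iodine in 4 of 4 tested (Gh, Prl, Cga and Pomc), with a summed signal, in units of the array's 75th percentile, of 3.40 and 7.05 in controls, against 14.8 and 10.8 in iodine, while Pou1f1 was not tested because its probe was well above background on fewer than 2 arrays. Choroid plexus genes were tested in 6 of 6, with sums of 163 and 144 in controls, against 53.4 and 270 in iodine. Such sums are led by the brightest probes, here Ttr, which read 7.25 and 7.06 in controls, against 5.62 and 7.99 in iodine. The median deviation of the 6 genes from their 4-array means was 0.23 and 0.15 in controls, against -1.18 and 0.89 in iodine. Meningeal fibroblast genes were tested in 6 of 6 and summed to 20.8 and 26.8 in controls, against 14.9 and 24.7 in iodine. Markers of thalamus and habenula, 4 of 4 tested, summed to 3.70 and 3.34 in controls, against 3.29 and 6.19 in iodine. B and plasma cells had 2 of 4 markers tested, with sums of 0.094 to 0.14 in controls and 0.084 to 0.11 in iodine, and Cd79a and Sdc1 were not tested for the same reason as Pou1f1. Among resident cells, oligodendrocyte markers were higher in iodine in 4 of 5. Their sums were 162 and 161 in controls, against 171 and 165 in iodine. The largest difference was that of Mbp at 0.31 ± 0.080, with another Mbp probe at -0.13. Neuron markers were higher in 2 of 5 (median -0.045). They ran from Camk2a at -0.14 ± 0.18, with another probe at 0.34, to Slc17a7, a glutamate transporter of excitatory neurons, at 0.40 ± 0.084. The neuron sum, led by Snap25, Camk2a and Syt1, was lowest on iodine replicate 3, at 326 against 357 to 381 on the other arrays. Astrocyte markers were higher in 2 of 5 (median -0.087), from Aldh1l1 at -0.17 ± 0.094 to Gfap at 0.29 ± 0.087. Microglial markers were higher in 5 of 6, but Aif1 and Csf1r lay at only 0.00039 and 0.0082, and P2ry12 at -0.24 ± 0.097. Endothelial markers were higher in 3 of 5, from Ly6c1 at -0.34 ± 0.15 to Cldn5 at 0.60 ± 0.25. None of these markers passed limma's adjusted p of 0.05. The part of cell makeup in the members' values was not tested.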

How the data were processed

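Total RNA of 4 dorsal hippocampus samples was labelled with Cy3 and hybridised to 1-colour Agilent arrays. The authors deposited scanner output of Agilent Feature Extraction (version 12.1.1.1) per the file headers. Of the deposited columns the processed intensity was used, which is background-subtracted and spatially detrended within the array but not normalized between arrays. The well-above-background, saturation and outlier flags are other deposited values, scored 0 or 1 by that software per the file headers. Other replicates were not analysed here.

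Spots of a probe without outlier flags were averaged as log2 values. From these the 75th percentile of all 56605 non-control probes of the same array was taken off. A probe was kept if 2 or more of the 4 arrays called it well above background (38231, of which 38228 were measured on every array). Accessions without versions named 58.3% of probes through RefSeq annotation of GRCm38.p6. The array's own build is older, so no probe coordinates are given; those of promoters are RefSeq's. The brightest kept probe stood for a gene. Groups were compared with limma 3.58.1 in R 4.3.3 (lmFit and eBayes, two-sided), over all genes and over all probes, with Benjamini-Hochberg adjustment. The fit was also run on simulated data, with the same spread for all genes and planted differences larger than any member's. That run does not bear on differences of the members' size. Median spot and background intensities, also deposited, served the normexp alternative (offset 50), as no mean signal column was found. Other software was the R package data.table (version 1.17.8), Python 3.11.15 and matplotlib 3.10.9.

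The members and lists were chosen with earlier results of these data known. All 10 members, the 3 main sensors and the highest and lowest gene of each other pathway list are named, by rule. Herpud2 was named beside a count after its values were seen, as were the marker genes.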

Additional observations from a re-analysis of the deposited data

How the results depend on the processing

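No member passed limma's adjusted p of 0.05 in any of 12 alternatives, over genes or over probes, and 116 of 120 member values kept their direction. The exceptions were Hspa5 (0.0027), Pdia4 (0.041) and Pdia6 (0.046) without control replicate 2, and Pdia6 (0.010) with normexp; the cause was not tested. Leaving out 1 array gave Hspa5 values from -0.34 to 0.0027, Pdia4 and Pdia6 values from -0.14, 6 to 9 members lower in iodine, a member median of -0.14 to -0.054, and 0 genes and 0 probes past the threshold. The other 8 alternatives gave 8 or 9 members lower and a median of -0.12 to -0.048. The share of all genes lower ran from 47.6% without a filter on dim probes to 61.8% when scaled by the median detected probe. With all arrays 0 genes passed and 1239 had an unadjusted p under 0.05. Over all probes 0 passed and 3451 had an unadjusted p under 0.05, but 25 passed with normexp and 53 with an intensity trend and robust variances, none of them a member's. Samples of the same replicate number did not deviate together over all genes (r = -0.025 over 16793 genes, and 0.18 over the 10 members; genes are not independent). With the replicate block 0 genes and 0 probes passed, 1059 genes had an unadjusted p under 0.05, and 9 members were lower. A block for slide was not run, as there was 1 slide. The ER stress element was in 7 of 10 member promoters with 1 mismatch allowed outside the gap, against 4 without, and then in 1.5% of all promoters. The median spot variation, averaged over the 4 arrays, was 2.61%. It was 2.62% over all repeated probes, an alternative chosen after seeing the data. With 2 arrays per group, differences as small as those of most members are within the error.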
